A study of Mus musculus with 5 samples.

Results

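The nuclei described here were selected by Rai14. With Drd2, Rai14 marks a cluster that the study places in the medial division of the central amygdala (CeM). Not all of the selected nuclei resembled each other, and 72 of the 121 fell in 1 cluster, described below. The selection used RNA counts, in droplet libraries that give each nucleus a barcode and each captured RNA molecule a unique molecular identifier (UMI). A nucleus entered with 500 to 8000 detected genes, a mitochondrial share of its UMIs under 0.8% and at least 1 UMI of Gad1 or Gad2, which encode the GABA-making enzymes of inhibitory neurons. A Rai14 nucleus then had at least 1.5 Rai14 UMIs per 10000 of its UMIs. It also had Tac1 under 1.5, Foxp2 under 8, Rarb under 5, and Pde1c and Il1rapl2 each under 15 per 10000, and 0 UMIs of Calcrl and of Vdr. These limits left 121 Rai14 nuclei of 6020 inhibitory nuclei and of 7161 nuclei in all.

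Of the 5 libraries, made from microdissected central amygdala, 3 were from fed and 2 from fasted animals. Each combined 1 male with 1 female mouse. Fed 1 and fed 2 came from naïve C57BL/6NRj mice aged 8 weeks with food. Fed 3 came from fed mice aged 12 weeks that carried the bacterial artificial chromosome transgene Htr2a-Cre and a Cre-dependent viral mCherry. Fasted 1 and fasted 2 came from C57BL/6NRj mice aged 8 weeks without food for 20 and 21 hours. The replicates are thus pools of tissue, and feeding state is not the only difference, since fed 3 differs in genotype, virus and age. By the study's legend, Fed_1 and Fast_1 were prepared together, as were Fed_2 and Fast_2, and its other fed library apart. By their numbers, these were taken to be fed 1 with fasted 1, fed 2 with fasted 2, and fed 3.

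The central amygdala is a mostly GABAergic nucleus that links emotional and visceral signals to behaviour, including feeding, and its medial division sends much of the output to the hypothalamus and brainstem. Rai14 encodes retinoic acid induced 14, also called ankycorbin, an ankyrin-repeat protein that binds actin. Drd2 encodes the D2 dopamine receptor, which couples to inhibitory G proteins, and Cacna1g encodes the T-type calcium channel Cav3.1, which opens near the resting potential and supports burst firing.

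The Rai14 nuclei numbered 31, 16 and 17 in fed 1, 2 and 3 and 27 and 30 in fasted 1 and 2. Their UMIs summed to 285579, 275268 and 247308 in the fed and 197668 and 585513 in the fasted libraries, and the median nucleus held 9001, 13646, 15161, 6839 and 18555 UMIs in the same order. The fasted libraries were therefore both the shallowest and the deepest. Median mitochondrial shares were 0.118%, 0.0813% and 0.0239% in fed and 0.318% and 0.221% in fasted Rai14 nuclei, with no overlap, and the part of this difference in the fasting values below was not tested. Between libraries, 3 barcodes of kept nuclei were shared, and 0 of them belonged to Rai14 nuclei. Scrublet called 92 of the 7161 nuclei doublets (1.28%), 2 of them Rai14 nuclei, and they were kept.

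As a share of inhibitory nuclei, Rai14 nuclei made up 3.31%, 1.86% and 1.29% in fed and 1.98% and 1.95% in fasted libraries. The fasted values lay inside the fed range. The means were 2.15 ± 1.04% (SD, n = 3) and 1.96 ± 0.0232% (SD, n = 2), and the difference of -0.188 percentage points gave p = 1.0 in a two-sided exact permutation test, which cannot go below 0.1 with 3 against 2 libraries. Rai14 nuclei were thus a small class in both feeding states, and a change in their share was not detectable with these libraries.

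The Rai14 limit split a broad range of values. Of 617 inhibitory nuclei with a Rai14 UMI, 248 reached the limit. Foxp2, a marker of the neighbouring intercalated neurons, left out 100 of these 248, and 70 of them were left out by Foxp2 alone. Rarb, a marker of amygdalostriatal neurons, stood over its limit in 38, Calcrl in 9, Tac1 in 8, Il1rapl2 in 4, Vdr in 2 and Pde1c in 1. The lowest Rai14 nuclei held 1.51 and 1.53 Rai14 UMIs per 10000, the median 2.85 and the highest 14.5, while the nuclei just under the limit held 1.49 and 1.48. A nucleus under 6667 UMIs passed on 1 Rai14 UMI, which was the whole evidence in 20 Rai14 nuclei, while 41 had 2 or 3 and 60 had at least 4.

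3 other groups of inhibitory nuclei served for comparison. The Rai14-low nuclei, 3141 in number, met every limit but that on Rai14, and 2953 of them had 0 Rai14 UMIs. The Calcrl nuclei, 803 in number, had a Calcrl UMI, Rai14 under its limit, and Foxp2, Rarb and Pde1c under theirs. They were chosen because Drd2 neurons are also known among the Calcrl neurons of the capsular division. The Rai14/Foxp2 nuclei, 100 in number, reached both the Rai14 and the Foxp2 limit. All groups were chosen by values in the same nuclei, so the levels that follow are descriptions without a test. Levels are given as CPM, a gene's UMIs summed over the nuclei of a group in a library and scaled to 1000000 UMIs of those nuclei.

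Rai14 (chr15:10569055-10715959, minus strand, in the GENCODE annotation of GRCm39) stood at 357, 305 and 404 CPM in the Rai14 nuclei of fed 1, 2 and 3 and at 309 and 338 in fasted 1 and 2, a level that the selection fixed. Drd2 (chr9:49251654-49319477, plus strand) was not used to select nuclei and stood at 123, 94.5 and 72.8 CPM in fed and 65.8 and 78.6 in fasted Rai14 nuclei. It lay between 18.4 and 29.7 in the Rai14-low nuclei of the 5 libraries, below every value of the Rai14 nuclei, and the fed means differed 3.88-fold. Drd2 also lay above the Calcrl nuclei, which ranged from 34.2 to 56.4, and the Rai14/Foxp2 nuclei, which ranged from 0 to 4.01. Other inhibitory nuclei, given with the clusters below, held more Drd2 than the Rai14 nuclei.

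A Drd2 UMI was found in 56 of 121 Rai14 nuclei (46.3%, exact 95% binomial interval 37.2 to 55.6%, which covers counting error only). To equalise depth, nuclei of at least 4000 UMIs were thinned to 4000 and shallower ones left out. This kept 27 of 31, 14 of 16 and 17 of 17 Rai14 nuclei in the fed libraries, 443 of 474, 397 of 444 and 579 of 604 Rai14-low nuclei, 137 of 139, 103 of 104 and 216 of 218 Calcrl nuclei, and 15 of 16, 23 of 23 and 15 of 15 Rai14/Foxp2 nuclei. The share was 26.0 ± 2.52% (SD, n = 3) in fed libraries, against 7.63 ± 0.503% of Rai14-low and 11.6 ± 3.34% of Calcrl nuclei. In Rai14/Foxp2 nuclei it was 1.45 ± 2.51%, and before thinning 1 of 54 fed Rai14/Foxp2 nuclei had a Drd2 UMI. That this class lacks the gene, and what part free RNA had, was not tested. The fed median depth of Rai14/Foxp2 nuclei was 11027 UMIs, against 11990 in Rai14 nuclei before thinning. The share in Rai14 nuclei thus lay above those of the comparison groups, although most Rai14 nuclei showed no Drd2 UMI at this depth.

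Cacna1g (chr11:94299217-94365230, minus strand) did not set these nuclei apart. Its level was 165, 79.9 and 105 CPM in fed and 137 and 76.9 in fasted Rai14 nuclei, against 130, 101 and 157 in fed and 131 and 84.4 in fasted Rai14-low nuclei. The Rai14 nuclei were higher in 2 of 5 libraries, and the fold of the fed means was 0.902. Calcrl nuclei, which the study places in the capsular division, were lower, between 44.7 and 70.3. The marker of the medial division was therefore present, with a UMI in 73 of 121 Rai14 nuclei, at a level that overlapped with that of the Rai14-low nuclei. A Cacna1g UMI was also found in 74 of 100 Rai14/Foxp2 nuclei. After thinning the share was 38.1 ± 8.38% of fed Rai14 and 33.9 ± 12.5% of fed Rai14/Foxp2 nuclei (SD, n = 3). Position in the tissue was not measured, and the nuclei are called here by the gene that selected them.

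**Figure D1:**
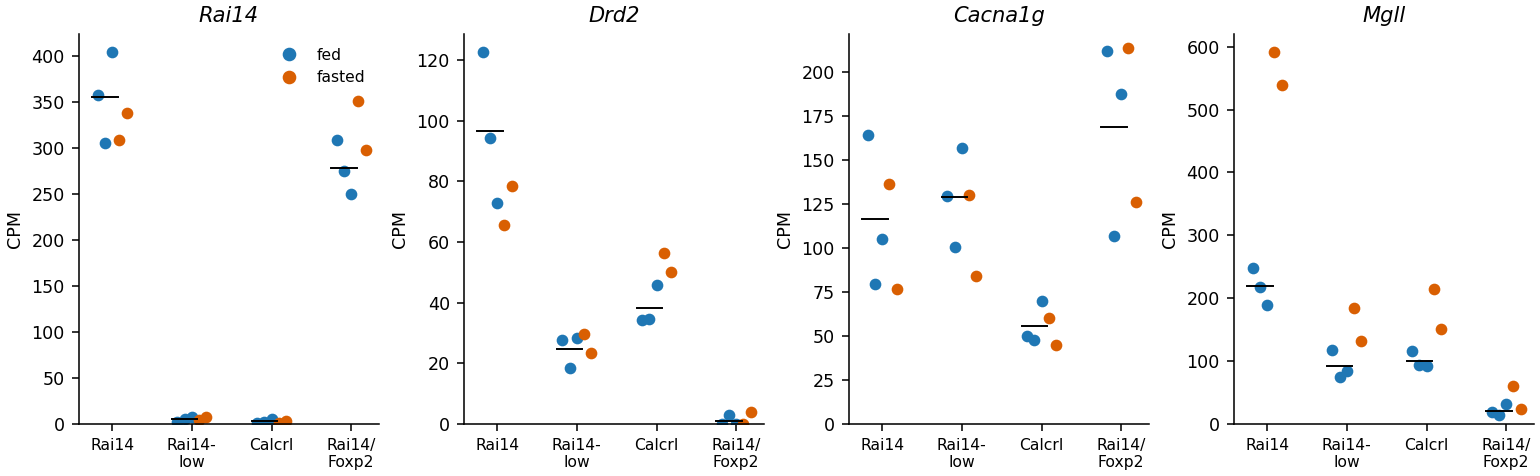
Levels of Rai14, Drd2, Cacna1g and Mgll in CPM (linear axes) in 4 groups of inhibitory nuclei. Each point is 1 library (blue fed, orange fasted) and each line the mean of the 3 fed libraries. Drd2 in Rai14 nuclei lies between 65.8 and 123, above all Rai14-low values, whereas Cacna1g overlaps between both groups.

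When all inhibitory nuclei were clustered on 2000 variable genes with the selecting genes held out, 72 of the 121 Rai14 nuclei (59.5%) fell in 1 of 25 clusters, here cluster 10. The share per library was 61.3%, 56.3% and 64.7% in fed and 44.4% and 70.0% in fasted libraries. Cluster 10 held 260 nuclei and was led by Impg1, Rai14, Kcnk9, Chrm3 and Pde11a. Of its 188 nuclei that were not selected, 133 had 0 Rai14 UMIs and 50 had Rai14 under the limit, so the limits took a part of the nuclei that resembled each other. After thinning to 4000 UMIs, 48.3% of the nuclei that then passed lay in cluster 10.

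The remaining 49 Rai14 nuclei were spread over other clusters. Cluster 17, led by Rxfp2, Gbx1 and Lhx8, held 12, and cluster 6, led by Chst9, Foxp2 and Tshz1, held 9. Cluster 23, led by the interneuron genes Npy, Nos1 and Sst, held 4, of which 3 were from fasted 1. The astrocyte-like cluster 14 held 3, the microglia-like cluster 19 held 1, and the oligodendrocyte-like cluster 20 held 1, from fasted 2. Together the glial and interneuron clusters held 9 Rai14 nuclei, which left 112.

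Nuclei with more Rai14 evidence lay in cluster 10 more often. It held 5 of the 20 nuclei with 1 Rai14 UMI (25.0%), 21 of the 41 with 2 or 3 (51.2%) and 46 of the 60 with at least 4 (76.7%), whose median depths were 5058, 10136 and 17021 UMIs. Cluster 10 also held 47 of the 56 Rai14 nuclei with a Drd2 UMI and 25 of the 65 without one, at median depths of 14941 and 10041 UMIs. Within cluster 10, Drd2 rested at 152, 108 and 105 CPM in fed and 119 and 104 in fasted Rai14 nuclei, and Cacna1g at 152, 126, 117, 184 and 88.6 in the same libraries. Over all its nuclei, selected or not, cluster 10 held 48.2 CPM of Drd2. On that scale 6 clusters held more, with 55.2 and 55.5 in clusters 4 and 14, 256.5 in cluster 3 (led by Drd2 and Prkd1), 188 in cluster 5 (Synpo2 and Rarb), 184 in cluster 9 (Pde1c and Tbc1d4) and 288 in cluster 15 (Dach1 and Mro). Cdh9, which the study pairs with Calcrl as a marker, was also among the leading genes of cluster 3. The limits on Rarb and Pde1c also applied to the Rai14-low and Calcrl nuclei, so nuclei rich in these genes were not among them.

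**Figure D2:**
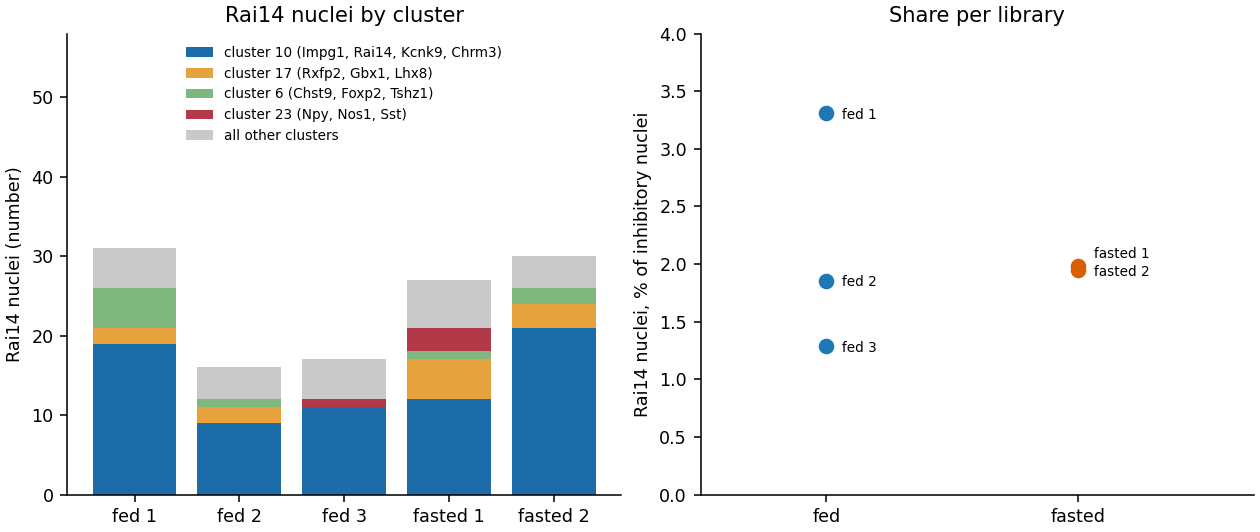
Left, number of Rai14 nuclei in each library, stacked by cluster of inhibitory nuclei. Right, Rai14 nuclei as a percentage of the inhibitory nuclei, 1 point per library. Cluster 10 gives 72 of the 121 nuclei, and the fasted shares of 1.98% and 1.95% lie inside the fed range of 1.29% to 3.31%.

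The fed profile compared Rai14 with Rai14-low nuclei over 5552 genes with at least 30 CPM in the higher of both means. Of these, 84 (1.51%) were at least 2-fold higher in the mean and higher in 3 of 3 fed libraries, and 172 (3.1%) were at least 2-fold lower in the same way. The counts describe how these nuclei differ from the mixture around them and have no test. The genes named are from the 15 highest and the 10 lowest by fold, besides genes of lists on dopamine signalling, channels, receptors and feeding.

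Impg1, which encodes a proteoglycan of the interphotoreceptor matrix, stood furthest apart. It measured 109, 29.1 and 48.5 CPM in fed and 40.5 and 99.1 in fasted Rai14 nuclei, against 0.119 to 1.64 in Rai14-low nuclei, and the fed means differed 76.2-fold. An Impg1 UMI was found in 30 of 121 Rai14 nuclei, all 30 of them in cluster 10, and in 17 of 3141 Rai14-low nuclei. Pde11a, a phosphodiesterase that breaks down cAMP and cGMP, was more evenly spread. It measured 476, 396 and 344 in fed and 283 and 400 in fasted Rai14 nuclei against 46.2 to 58.6 in Rai14-low nuclei, with a UMI in 82 of 121 nuclei and a 7.53-fold difference of the fed means.

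Htr1f and Kcnk9 were also among the 15 highest. Htr1f, a serotonin receptor coupled to inhibitory G proteins, measured 693, 621 and 489 CPM in fed and 440 and 789 in fasted Rai14 nuclei, against 115 to 222 in Rai14-low nuclei, a 4.19-fold difference of the fed means. It was higher still in the Rai14/Foxp2 nuclei, at 1053 to 1889. Kcnk9, the acid-sensitive potassium leak channel TASK-3, measured 203, 113, 138, 187 and 243 across the libraries against 25.1 to 34.8, a 4.82-fold difference. Chrm3, the M3 muscarinic receptor, was not among the 15 but is a leading gene of cluster 10. It measured 1243, 974 and 1104 in fed and 936 and 1441 in fasted Rai14 nuclei against 312 to 516 in Rai14-low nuclei. These genes were named for a large fold or for leading cluster 10, so their distance from Rai14-low nuclei follows in part from the choice. Kcnk9 (0 to 19.3) and Chrm3 (22.4 to 106.8) were also lower in Rai14/Foxp2 nuclei.

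Enzymes, transporters and matrix genes were also among the 15. Gpc6, a heparan sulphate proteoglycan of the cell surface, was the most abundant, with 1425, 1762 and 1844 CPM in fed and 1138 and 1368 in fasted Rai14 nuclei against 246 to 413 in Rai14-low nuclei, a 5.44-fold difference. Hs3st2, a heparan sulphate sulphotransferase, differed 4.74-fold, Nt5e, which makes adenosine outside the cell, 5.23-fold, and Slc4a4, a sodium bicarbonate cotransporter also abundant in astrocytes, 4.42-fold. Slc4a4 was higher in Rai14/Foxp2 nuclei, at 298 to 425 CPM against 178 to 237 in Rai14 nuclei, and its log2 fold over Rai14-low nuclei fell from 2.14 to 1.44 when averaged over nuclei. Scube2 (8.63-fold), Cgnl1 (7.64-fold), the kinase gene Stk32a (7.14-fold) and Lurap1l (4.62-fold) were also higher in 5 of 5 libraries. Car12, a carbonic anhydrase, differed 7.38-fold in the mean, but with 59.5, 50.9 and 222 in the fed nuclei the value rested largely on fed 3, without which the log2 fold fell from 2.88 to 1.91. Thinning to 4000 UMIs moved the log2 fold from 2.84 to 1.77 for Stk32a, from 2.88 to 1.72 for Car12, from 6.25 to 5.55 for Impg1 and from 3.11 to 3.90 for Scube2.

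Genes that were low in Rai14 nuclei included some markers of other central amygdala neurons. Not all such markers were low, since Tafa1, which marks the study's Il1rapl2 cluster, had a fold of 1.005. Prkcd, which marks neurons of the lateral division, measured 10.5, 0 and 36.4 CPM in fed and 10.1 and 6.83 in fasted Rai14 nuclei, against 57.6 to 94.4 in Rai14-low nuclei. Sox5, a transcription factor, measured 10.5, 105 and 113 in fed and 45.5 and 32.5 in fasted Rai14 nuclei against 329 to 467. The 10 lowest by fold were Megf11 (0.0783), Zeb2 (0.128), Cdc14a (0.135), Ptgfrn (0.136), Gm19410 (0.138), Cachd1 (0.143), Fat4 (0.168), Sox5 (0.178), Man1c1 (0.181) and Vipr2 (0.183), a receptor for vasoactive intestinal peptide. Except for Zeb2 in fasted 2, all were lower in Rai14 nuclei in each of the 5 libraries. Except for Sox5, they gave 0 to 6 UMIs in the Rai14 nuclei of a fed library, and the folds moved with single libraries. Without fed 1, the log2 fold went from -3.67 to -4.88 for Megf11, from -2.96 to -3.85 for Zeb2, from -2.81 to -3.46 for Cachd1, from -2.89 to -2.24 for Cdc14a and from -2.45 to -1.83 for Vipr2. Without fed 2 it was -2.95 for Megf11 and -1.85 for Fat4, and without fed 3 it was -4.02 for Cdc14a, -4.21 for Fat4 and -3.66 for Gm19410. After thinning to 4000 UMIs, Zeb2 (-0.69) and Vipr2 (-0.68) were no longer 2-fold lower, and the other 8 were. Averaged over nuclei, the log2 fold was -0.78 for Vipr2, no longer 2-fold lower, and -4.71 for Zeb2. It was -1.605 for Gm19410, -1.80 for Sox5, -2.12 for Ptgfrn, -2.3 for Cdc14a and -2.92 for Megf11.

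**Figure D3:**
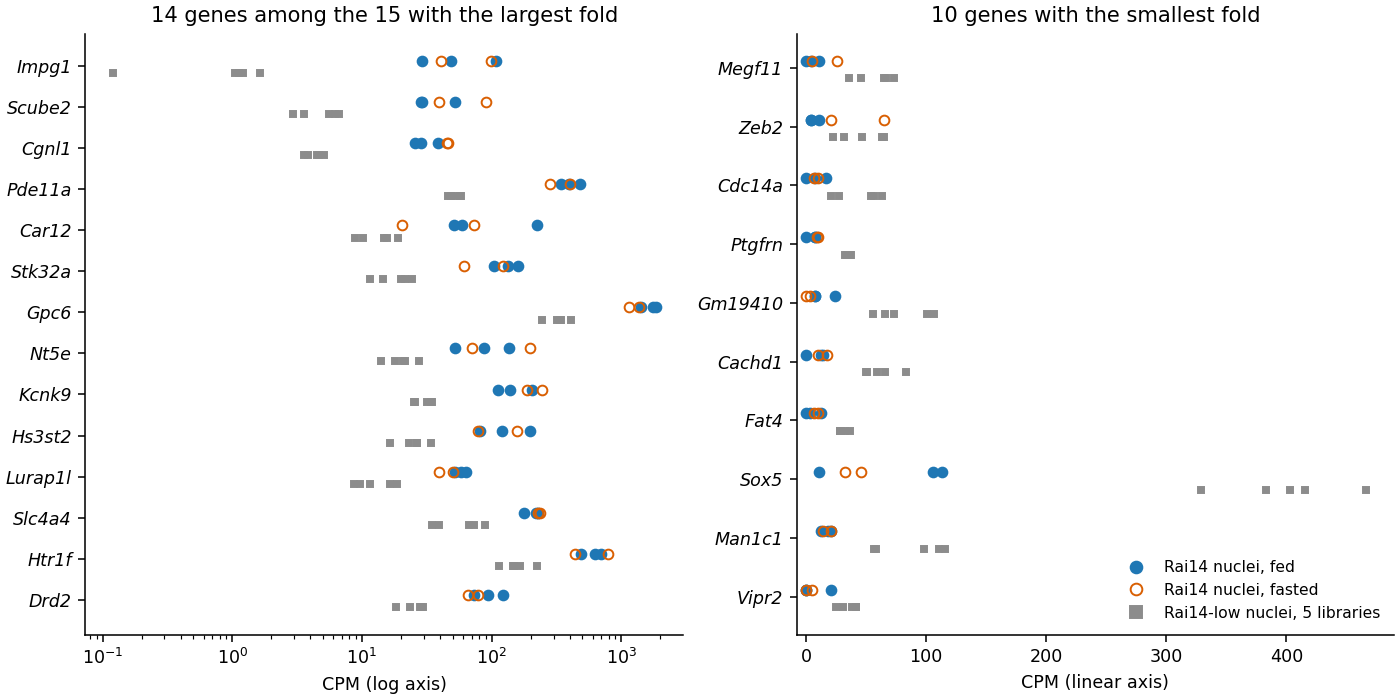
CPM in Rai14 nuclei (filled blue circles fed, open orange circles fasted) and in Rai14-low nuclei (grey squares, 5 libraries) for 14 of the 15 genes with the largest (left, log axis) and the 10 with the smallest fold of the fed means (right, linear axis). Impg1 heads the left panel at 76.2-fold, and Zeb2 in fasted 2, at 64.9, is the exception on the right.

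The dopamine list held 15 genes over the abundance limit, with a median fold of 1.03 against 0.969 over all genes. Besides Drd2, Arpp21, a phosphoprotein regulated by cAMP, was high, at 1383, 1184 and 1456 CPM in fed and 992 and 1288 in fasted Rai14 nuclei against 580 to 707 in Rai14-low nuclei. Arpp21 overlapped with the Rai14/Foxp2 nuclei, at 1076 to 1389, and the Calcrl nuclei, at 829 to 1109. Ptpn5, the striatum-enriched phosphatase STEP, was low, at 87.5, 47.2 and 121 in fed and 111 and 97.4 in fasted Rai14 nuclei against 155 to 218. The D1 receptor gene Drd1 measured 10.5, 14.5 and 24.3 in fed and 10.1 and 5.12 in fasted Rai14 nuclei, with 18 UMIs in all, against 3.05 to 5.84 in Rai14-low nuclei, and was the higher of both in 4 of 5 libraries. A Drd1 UMI was found in 13.3 ± 4.04% of fed Rai14 and 5.25 ± 1.52% of fed Rai14-low nuclei (SD, n = 3), and in 18.7 ± 1.31% of fed Rai14/Foxp2 nuclei. After thinning to 4000 UMIs the shares were 5.16 ± 6.02% of Rai14, 2.21 ± 0.977% of Rai14-low and 5.89 ± 1.34% of Rai14/Foxp2 nuclei, with 0% of the Rai14 nuclei of fed 2 and of both fasted libraries, so the difference in Drd1 from Rai14-low nuclei lay within the spread between libraries. The adenosine receptor gene Adora2a, a marker of striatal D2 neurons, gave 4 UMIs.

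The following counts stand beside 1.51% of all genes high and 3.1% low. Among 33 potassium channel genes Kcnk9 and Kcnh1 (2.22-fold) were high and Kcnk13 (0.326-fold) was low, with a list median of 1.13. In the GABA synapse list of 24 genes, the receptor subunits Gabrb2 (2.03-fold) and Gabrd (2.97-fold) were among the high genes and 0 genes were low. Of 30 glutamate receptor genes, Grm4 (2.24-fold), an inhibitory metabotropic receptor, and Cacng5 (2.80-fold), an AMPA receptor auxiliary subunit, were high.

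Of 11 neuropeptide genes over the abundance limit, 0 were high and Penk, Scg3 and Tafa2 were low, with a list median of 0.836. Penk, the enkephalin precursor, measured 35.0, 0 and 16.2 CPM in fed and 55.7 and 39.3 in fasted Rai14 nuclei against 47.9 to 93.7 in Rai14-low nuclei. In the list of opioid, serotonin and cannabinoid genes, Htr1f and Mgll were high and Htr2c, the serotonin 2C receptor, was low at 84.0, 47.2 and 206 in fed and 96.1 and 58.1 in fasted nuclei against 340 to 517. The transcription factor gene Zfhx4 (2.53-fold) was high among 19 subpallial factors, and Meis1, Ebf1 and Nr2f1 were low. Of 4 feeding receptor genes over the limit 0 stood apart, as did 0 of 7 heat shock and 0 of 19 respiratory chain genes.

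Genes that the study followed in feeding neurons were near the detection limit. The ghrelin receptor gene Ghsr had 0 UMIs in 121 Rai14 nuclei, which allows a share of nuclei with a UMI of up to 2.48% (3 of 121), and 0 UMIs in the 3 comparison groups. The exact 95% binomial interval for the Rai14 nuclei ended at 3.00%. Htr2a gave 8 UMIs in 6 Rai14 nuclei, of which 4 nuclei with 6 UMIs were from fed 3, the Htr2a-Cre library, and Pnoc, the nociceptin precursor gene, gave 4 UMIs in 2 Rai14 nuclei of fed 2. The viral mCherry was present in fed 3, where 6 of 17 Rai14 nuclei had a UMI (35.3%, exact 95% binomial interval 14.2 to 61.7%). The share was 35.1% (212 of 604) in Rai14-low, 34.9% (76 of 218) in Calcrl and 20.0% (3 of 15, with 31 UMIs) in Rai14/Foxp2 nuclei. However, the 8 mCherry UMIs of the Rai14 nuclei gave 32.4 CPM against 216 in Rai14-low nuclei. Whether these UMIs came from labelled nuclei or from free RNA was not tested.

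The effect of fasting was tested on the UMIs summed per library over the Rai14 nuclei, with edgeR's quasi-likelihood test and Benjamini-Hochberg adjustment over 5003 genes, the selecting genes left out. Mgll was higher and Tmem132c lower in fasted libraries at an adjusted p under 0.05, 1 gene in each direction (0.02% each). At an unadjusted p under 0.05, 111 genes were higher (2.22%) and 79 lower (1.58%), and the median log2 fold change of all genes was -0.0032. These 190 genes are fewer than that p would give without an effect of fasting. In sums over nuclei, fewer nuclei that use a gene and less RNA per nucleus cannot be told apart. Fed and fasted libraries also differ in the batch of fed 3, and p-values here measure the spread between pools of tissue.

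Mgll (chr6:88652108-88805342, plus strand) encodes monoacylglycerol lipase, which breaks down the endocannabinoid 2-arachidonoylglycerol. It measured 249, 218 and 190 CPM in fed and 592 and 540 in fasted Rai14 nuclei, so that both fasted libraries lay above all fed ones. The log2 fold change was 1.36 (SE 0.23, edgeR adjusted p = 0.0446). A UMI of Mgll was found in 22, 13 and 13 Rai14 nuclei of the fed and in 22 and 27 of the fasted libraries, and no single nucleus gave over 36.7% of a library's UMIs. Rai14-low nuclei measured 118, 75.0 and 84.3 in fed and 185 and 132 in fasted libraries, and Calcrl nuclei 116, 93.4 and 92.7 in fed and 214 and 152 in fasted libraries. The fasting effect in Rai14 nuclei exceeded that in Rai14-low nuclei by 0.63 on the log2 scale, a difference that did not pass the test (edgeR adjusted p = 0.959).

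Tmem132c (chr5:127318850-127642857, plus strand) encodes a transmembrane protein with cell adhesion-like domains. It measured 137, 153 and 154 CPM in fed and 10.1 and 39.3 in fasted Rai14 nuclei, from 39, 42, 38, 2 and 23 UMIs, without overlap. The log2 fold change was -2.28 (SE 0.39, edgeR adjusted p = 0.0446). Rai14-low nuclei measured 116, 96.5 and 125 in fed and 82.0 and 74.3 in fasted libraries, and the fall was larger in Rai14 nuclei by 1.69 on the log2 scale (log2 difference -1.69, edgeR adjusted p = 0.0175). That call was lost in several alternatives given with the other such differences below. The difference rested on few molecules, since the 2 fasted libraries together held 25 UMIs.

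Both calls lay close to the threshold. With the preparation batch as a replicate block, Mgll (log2 fold change 1.26, adjusted p = 0.0376) and Tmem132c (-2.37, adjusted p = 0.0181) passed edgeR's test again, and 7 genes were called in all. In that fit fed 3 was alone in its batch, so it added no evidence on the size of the fasting effect. In the blocked fit of the 4 paired libraries alone, without fed 3, 0 genes passed, with Mgll at 1.25 (adjusted p = 0.140) and Tmem132c at -2.38 (adjusted p = 0.127) in edgeR. The other 5 of the 7 were Npy, Sst, Grik1 and Nxph1, which were higher, and Tafa1, which was lower. In fasted 1, 3 nuclei of cluster 23, the interneuron cluster, gave 72 of 75 Npy, 63 of 65 Sst, 51 of 73 Nxph1 and 27 of 54 Grik1 UMIs. In fed 3, 1 nucleus of cluster 23 gave 29 of 29, 18 of 24, 53 of 61 and 39 of 42 UMIs of the same genes. Without the 2 called doublets, adjusted p in edgeR was 0.0678 for Mgll and 0.0732 for Tmem132c, and without the 9 nuclei of glial and interneuron clusters it was 0.0539 for both. Leaving out fed 1 or fed 2 ended both calls (adjusted p = 0.318 and 0.207), as did the edgeR fits of nuclei with at least 4000 UMIs and without TMM normalization. Mgll also lost its call without fed 3 (adjusted p = 0.153) or fasted 2 (adjusted p = 0.106), and Tmem132c, which passed in both of these edgeR fits, reached -3.83 on the log2 scale without fasted 2. The direction held in 17 of 17 alternatives for both genes, with log2 fold changes of 0.91 to 1.44 for Mgll and -3.83 to -0.78 for Tmem132c.

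Restricted to the 72 Rai14 nuclei of cluster 10, the same test over 3554 genes called 6. Mgll measured 334, 288 and 246 CPM in fed and 877 and 689 in fasted libraries (log2 fold change 1.42, edgeR adjusted p = 0.0219), and Tmem132c 193, 240 and 176 in fed and 21.6 and 58.2 in fasted libraries (-2.01, adjusted p = 0.0275). Fkbp5 (1.64, adjusted p = 0.0275) and Ppargc1a (1.92, adjusted p = 0.0496) were also higher, and Asic2 (-1.08, adjusted p = 0.0380) and Qrfpr (-2.68, adjusted p = 0.0496) lower. Over all 260 nuclei of cluster 10, selected or not, Mgll (0.91, adjusted p = 0.0403) and Fkbp5 (1.42, adjusted p = 0.0101) passed edgeR's test. The other 4 did not pass there, with Tmem132c at -0.78 (adjusted p = 0.339), Qrfpr at -0.85 (adjusted p = 0.802), Asic2 at -0.19 (adjusted p = 0.999) and Ppargc1a at 1.04 (adjusted p = 0.140). Both restrictions were chosen after the values were seen.

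The 10 genes with the next smallest p did not pass the test in all Rai14 nuclei. Fkbp5, a co-chaperone of the glucocorticoid receptor that glucocorticoids induce, measured 137, 98.1 and 56.6 CPM in fed and 243 and 287 in fasted Rai14 nuclei (log2 fold change 1.44, SE 0.31, edgeR adjusted p = 0.241). Its values in Rai14-low nuclei were similar, at 93.5, 109 and 57.7 in fed and 207 and 210 in fasted libraries. Ppargc1a, a coactivator of mitochondrial biogenesis and fasting metabolism, measured 35.0, 54.5 and 72.8 in fed and 157 and 144 in fasted Rai14 nuclei (1.47, SE 0.33, edgeR adjusted p = 0.241). In Rai14-low nuclei it stood at 72.1, 78.8 and 71.2 in fed and 64.1 and 97.3 in fasted libraries, and the difference between both effects was 1.34 (edgeR adjusted p = 0.0873). Among the Rai14 nuclei of cluster 10 this difference was 1.67 and passed (edgeR adjusted p = 0.0209). Over all nuclei of cluster 10 it was 0.89 and did not pass (edgeR adjusted p = 0.250).

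Qrfpr, the receptor of the feeding peptide QRFP, measured 59.5, 233 and 247 CPM in fed and 55.7 and 18.8 in fasted Rai14 nuclei, where fed 1 stood near fasted 1 (log2 fold change -2.53, edgeR adjusted p = 0.241). This change ranged from -3.225 to -1.70 with 1 library left out. Fth1, the ferritin heavy chain, measured 31.5, 32.7 and 12.1 in fed and 91.1 and 97.4 in fasted Rai14 nuclei, and 56.4, 12.9, 31.6, 144 and 172 in Rai14-low nuclei. Tafa1 and Plpp4, a lipid phosphatase, had log2 fold changes of -1.68 and 1.34. Also among the 10, with changes of 1.62, 1.84 and 1.78, were the myelin gene Mbp, the ribosomal gene Rps29 and Sparcl1, a secreted glycoprotein of astrocytes and neurons. With 1 library left out, their changes ranged from 0.84 to 2.17, from 1.55 to 2.46 and from 1.32 to 2.15. The lowest value over all alternatives was 0.41 for Mbp and 0.29 for Sparcl1. Drd2 and Cacna1g had log2 fold changes of -0.39 (SE 0.33) and -0.22 (SE 0.35) and did not pass the test.

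**Figure D4:**
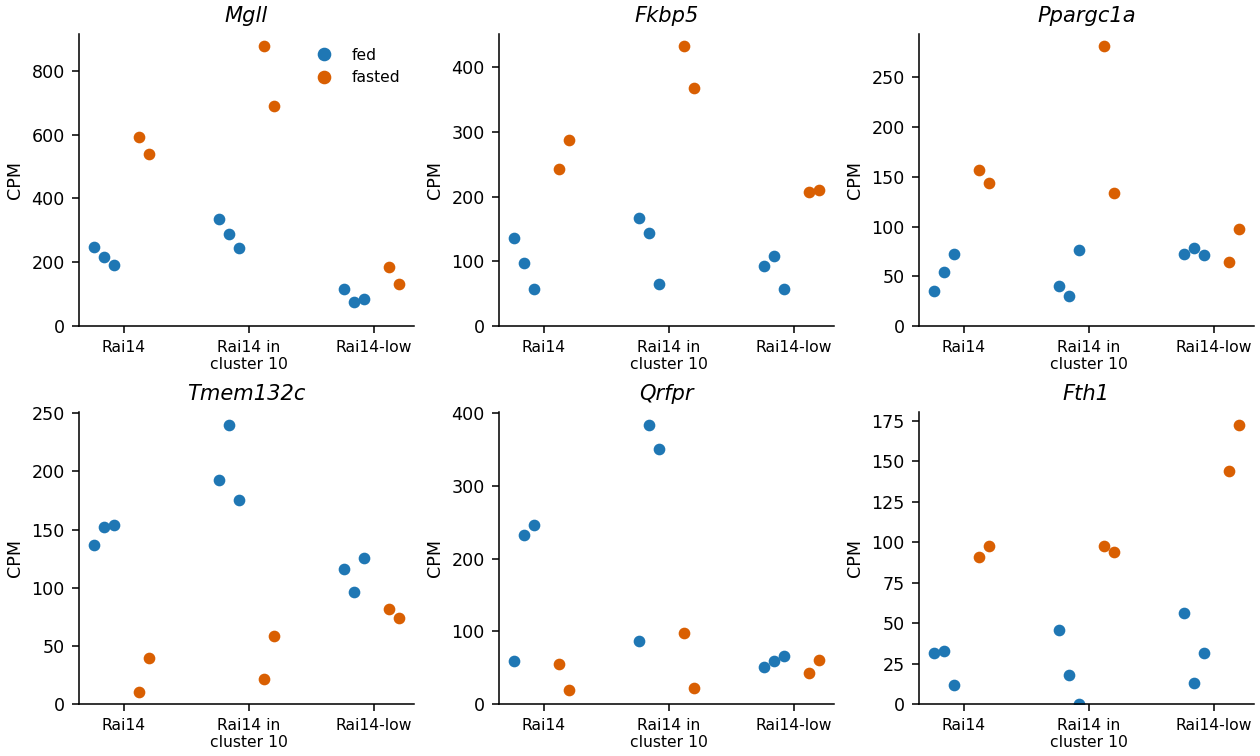
CPM of 6 genes in all Rai14 nuclei, in Rai14 nuclei of cluster 10 and in Rai14-low nuclei (linear axes). Each point is 1 library, 3 fed (blue) and 2 fasted (orange). Mgll and Tmem132c, which passed the test in all Rai14 nuclei, do not overlap between feeding states, whereas Qrfpr of fed 1 lies at 59.5, beside fasted 1 at 55.7.

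Gene lists gave few calls, and Mgll was the only listed gene past the adjusted threshold. The counts below are at an unadjusted p under 0.05, which 2.22% of all genes reached as higher and 1.58% as lower, so that 0 or 1 gene of a list of about 30 is near the background. Of 8 glucocorticoid genes tested, 3 were higher (Fkbp5, Zbtb16 and Mt1) and 0 lower, with a median log2 fold change of 0.59. Of 16 insulin and fasting response genes, Ppargc1a was higher and Igf1r lower at that level, with a median of 0.05. Of 11 circadian genes Clock was higher (median 0.22), of 15 dopamine genes Kcnj3 was higher and Gng7 lower (median -0.18), and of 30 glutamate receptor genes 0 passed (median -0.13). Of 22 GABA synapse genes Gabra4 was higher (median -0.03), of 33 actin and spine genes Dapk1 (median 0.03), and of 32 potassium channel genes Kcnj3 (median -0.03). Of 51 adhesion genes 2 were higher and 4 lower (median -0.02), and of 20 respiratory chain genes 0 passed (median 0.16). The sum over all 97 listed respiratory chain genes was 1684, 1697 and 1634 CPM in fed and 2064 and 2142 in fasted Rai14 nuclei. In Rai14-low nuclei that sum was 1703, 1710 and 1613 in fed and 1936 and 2246 in fasted libraries, so the fasted sums lay above all fed sums in both groups. Of 10 neuropeptide genes Scg3 was higher and Tafa1 lower (median 0.75). The sum of the neuropeptide list was 700, 469 and 1051 CPM in fed and 1806 and 497 in fasted Rai14 nuclei, and 699, 540 and 474 in fed and 346 and 489 in fasted Rai14 nuclei of cluster 10, where the fasted mean lay below the fed one. In fasted 1, cluster 23 gave most of the Npy and Sst UMIs, as given above.

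Of the cytoplasmic ribosomal protein genes, all 14 tested had positive log2 fold changes with a median of 0.74, and 6 were higher at an unadjusted p under 0.05. Of all 5003 genes, 2479 had positive changes and 2.22% were higher at that level. Their summed level over 83 listed genes was 1457, 937 and 1092 CPM in fed and 2484 and 1962 in fasted Rai14 nuclei. In Rai14-low nuclei the sum was 1894, 1099 and 1455 in fed and 2864 and 2903 in fasted libraries, and in each of both groups the fasted sums lay above all fed sums. The mitochondrially encoded transcripts, left out of the test, summed to 1254, 2318 and 833 in fed and 3081 and 2096 in fasted Rai14 nuclei. The part of library quality in these values was not tested.

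Marker transcripts of other cells were followed beside these results. The summed level of 8 astrocyte markers was 319, 410.5 and 311 CPM in fed and 395 and 652 in fasted Rai14 nuclei, with fasted 1 inside the fed range. In the Rai14 nuclei of cluster 10 the astrocyte sum was 344, 312 and 234 in fed and 379 and 342 in fasted libraries. The summed level of 7 oligodendrocyte markers was 161, 69.0 and 80.9 CPM in fed and 207 and 769 in fasted Rai14 nuclei, with all 7 detected and Mbp the most abundant. In fasted 2, 1 nucleus of the oligodendrocyte-like cluster 20, with 22310 UMIs and 8 Rai14 UMIs, gave 75 of 78 St18 and 124 of 182 Mbp UMIs. Scrublet did not call it a doublet. In the Rai14 nuclei of cluster 10 the sum was 142, 72.0 and 76.1 in fed and 249 and 198 in fasted libraries, with Opalin at 0. Both fasted sums thus still lay above all fed sums there. In Rai14-low nuclei the oligodendrocyte sums overlapped, at 288.5, 256.5 and 245.3 in fed and 238.4 and 336.6 in fasted libraries. The 8 basolateral interneuron markers summed to 1015, 632, 1286, 1776 and 794 in the Rai14 nuclei and to 55.7, 84.0, 164, 195 and 157 in those of cluster 10, with Erbb4 the most abundant and Nkx2-1 and Cck at 0 in the latter. Mgll and Tmem132c kept their directions within cluster 10, as given above.

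**Figure D5:**
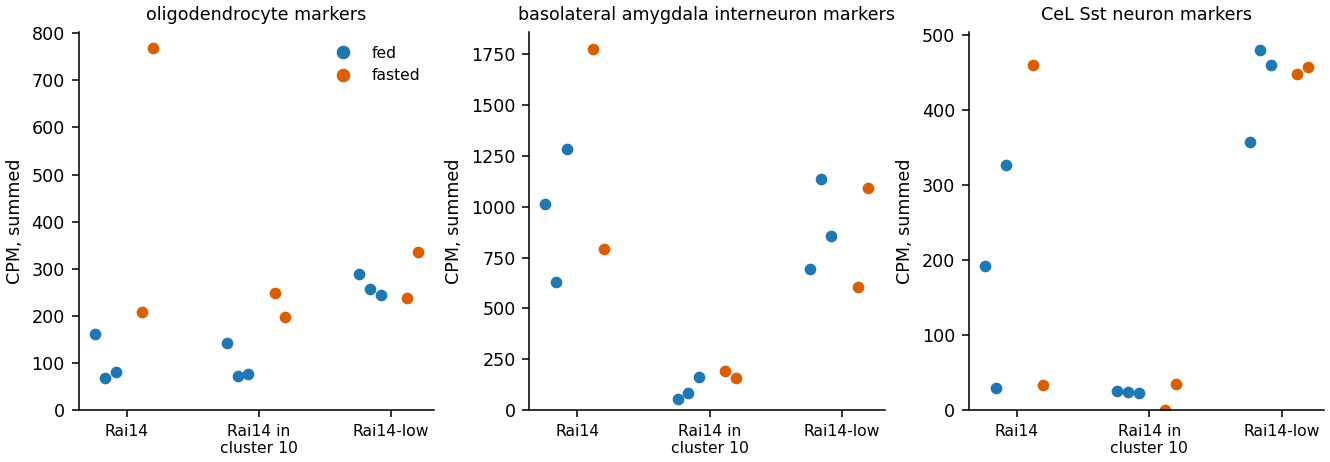
Summed CPM of the markers of oligodendrocytes, basolateral amygdala interneurons and Sst neurons of the lateral division (CeL) in all Rai14 nuclei, in those of cluster 10 and in Rai14-low nuclei, 1 point per library. The oligodendrocyte sum of 769 in fasted 2 falls to 198 in the nuclei of cluster 10. Both fasted sums there still lie above all fed ones.

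The difference of fasting effects between Rai14 nuclei and each comparison group was tested with the library as a block. Against Rai14-low nuclei, 14 of 11676 genes passed (0.12%), 11 with a more positive and 3 with a more negative effect in Rai14 nuclei. The 3 were Tmem132c, Qrfpr (log2 difference -2.37, edgeR adjusted p = 0.00131) and Tafa1 (-1.53, edgeR adjusted p = 0.0115), and among the 11 were the oligodendrocyte genes St18, Mbp and Mobp, whose UMIs in fasted 2 came largely from the single nucleus above. With the nuclei of glial and interneuron clusters left out, the 3 passed again (adjusted p = 2.56e-05 for Qrfpr, 0.00522 for Tafa1 and 0.0469 for Tmem132c in edgeR), and these oligodendrocyte genes did not. The 3 calls did not hold throughout. DESeq2 called St18 alone. Without called doublets, Tmem132c and Tafa1 were lost (adjusted p = 0.0510 each in edgeR), as they were among the Rai14 nuclei of cluster 10 (adjusted p = 0.0732 each in edgeR). Over all nuclei of cluster 10 the differences were -0.69 for Qrfpr (adjusted p = 0.810), -0.62 for Tafa1 (adjusted p = 0.670) and -0.19 for Tmem132c (adjusted p = 1.0), and 0 of the 3 passed edgeR's test. Of single libraries, leaving out fed 3 ended the calls of Qrfpr and Tmem132c (adjusted p = 0.0695 each in edgeR), fed 1 that of Tafa1 (0.156), fasted 1 that of Tmem132c (0.444), and fasted 2 those of Qrfpr (0.979) and Tafa1 (0.696). The direction of the 3 differences was negative in all of these fits. Against Calcrl nuclei 0 of 9186 genes passed in edgeR and 0 in DESeq2, with 324 at an unadjusted p under 0.05. Against Rai14/Foxp2 nuclei 0 of 5665 passed in both tools, with 221 at that level. Both of these counts are fewer than that p would give without a difference.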

How the data were processed

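Nuclei were processed by the authors with 10x Chromium 3′ chemistry, and the deposited values are UMI counts per gene and barcode for 22532 genes. The file headers name Cell Ranger 5.0.0 and the methods GRCm39 with introns counted, whereas the submitters' processing notes name Cell Ranger 2.1.1 and mm10, so the build is uncertain. Coordinates are from GRCm39. Columns of other series numbered 0. Counts were summed per library and group. Sums were tested with edgeR 4.0.16 (quasi-likelihood, TMM, filterByExpr, adjusted p of 0.05) in R 4.3.3, and tools were tested on simulated data. The main fit had no block. Also run were DESeq2 1.42.0, the likelihood ratio test, other limits, the preparation batch as a block and left-out libraries. Clustering used scanpy 1.11.5 (2000 variable genes, 30 components, 20 neighbours, Leiden resolution 0.8). The study's legend pairs libraries 1 and 2 by preparation batch, and its numbers were taken to be those of the replicates here. Deviations of same-numbered libraries correlated at 0.061 and 0.144 over 5003 genes. With 2 fasted libraries, crossed pairs give the same values with opposite sign by construction, so this is little check of the pairing. Genes were named by rule: called genes, the 10 next smallest p, the 15 highest and 10 lowest folds, and called or abundant list members. Chrm3, Prkcd, Drd1 and Adora2a were added from cluster and marker lists, and genes of the cluster fits after their values were seen. The selection and all lists were chosen with earlier results of these data known. Xist, Tsix and Cre were not analysed here, and a few genes that the rule names are not reported here.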

Additional observations from a re-analysis of the deposited data

Results flagged for a closer look

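The fasting effect differed between Rai14 and Rai14-low nuclei in 14 genes by edgeR's interaction test. The log2 differences given here were positive for St18 (12.22), Clic4 (4.50), Mobp (4.11), Enpp2 (3.17), Zeb2 (2.97), Rorb (2.76), Rnf220 (2.40), Zfp536 (1.62), Mbp (1.596) and Adarb2 (1.31). They were negative for Qrfpr (-2.37), Tmem132c (-1.69) and Tafa1 (-1.53). The value of St18 is a fitted one, since its fed Rai14 sums were all 0 UMIs. A single nucleus of fasted 2 gave 45 of 57 Mobp, 41 of 59 Rnf220, 33 of 38 Zeb2, 24 of 28 Clic4 and 22 of 28 Enpp2 UMIs of the Rai14 nuclei there. For Adarb2, 1 nucleus gave 94.5% of the UMIs in fed 3 and 77.6% in fed 2, and for Zfp536, 1 nucleus gave 81.3% in fed 3. For Tmem132c the largest share of 1 nucleus in a fed library was 23.8%, and for Qrfpr 47.1%.

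The viral mCherry, outside the main measurement, was detected in 6 of the 17 Rai14 nuclei of fed 3 and in 0 Rai14 nuclei of the other libraries.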

How the results depend on the processing

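In Rai14 nuclei, 2 genes passed the fasting test. The number was 12 with the likelihood ratio test, 27 without the filter on low counts, 4 in nuclei with at least 2 Rai14 UMIs, 6 for Rai14 nuclei of cluster 10, 13 for all nuclei of cluster 10, 7 with the replicate block and 2 with DESeq2. It was 0 without TMM, in nuclei of at least 4000 UMIs, without called doublets, outside glial and interneuron clusters, and with the replicate block without fed 3. In these 5 fits 190, 196, 195, 209 and 239 genes had an unadjusted p under 0.05. Leaving out 1 library gave 0 to 12 genes, with 12 when fasted 1 was left out and 0 without fed 1 or fed 2.

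For the difference from Rai14-low nuclei, 14 genes passed. The number was 1 with DESeq2, 9 at 4000 UMIs and 7 without doublets, all among the 14. It was 5 for all nuclei of cluster 10, with 0 of them among the 14, and 11 for the Rai14 nuclei of cluster 10, with 1 among the 14. It was 4 to 19 with a library left out, with 4 without fed 3 and 9 without fasted 2, 3 of the 14 in each. For Calcrl nuclei, the number was 0, and 2 with the likelihood ratio test, 11 without the filter, 6 within cluster 10 and 0 to 7 with a library left out. For Rai14/Foxp2 nuclei, it was 0, and 2 with the likelihood ratio test, 3 without the filter, 2 for all nuclei of cluster 10 and 0 to 7 with a library left out. For all nuclei of cluster 10 the log2 differences of Adarb2 (-0.77), Rorb (-1.23) and Zeb2 (-0.92) changed sign, as did Zeb2 (-2.38) for Rai14 nuclei within it. The cause was not tested.

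The difference in share was 0.0206 points at 4000 UMIs, 0.0790 after thinning and -0.620 to 0.392 with a library left out, the highest without fed 1. The share in cluster 10 was 48.3% after thinning and 56.0 to 63.8% with a library left out. The 16 to 31 Rai14 nuclei of a library gave 197668 to 585513 UMIs, so values of low genes, such as Tmem132c with 2 and 23 UMIs in the fasted libraries, rest on few molecules. The cluster restrictions were added after the data were seen.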
